A study of Mus musculus with 12 samples.

Results

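The potassium channel genes were examined in peak lists of lysine crotonylation from mouse dorsal hippocampus. Members were all autosomal protein-coding genes of the RefSeq annotation of GRCm38 whose symbol starts with Kcn, which gave 92 of 20665 genes. Both lists are ChIP-seq peaks (chromatin immunoprecipitation and sequencing) of a pan-Kcr antibody, raised against crotonylated lysine, in C57BL/6J mice. The learning library is from mice that had undergone spatial object recognition training, and the homecage library from untrained mice in their home cage. The inputs, and the single-nucleus libraries of mice given crotonate or saline, were not analysed here. The age, sex and number of animals behind a ChIP library, and the time from training to dissection, are not given in the sources used here. Each condition had 1 antibody library, so nothing below has a replicate check, no p-value is given, and every value describes 2 peak lists. The lists hold no expression values, so the labelled tissue could not be checked against marker genes.

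Potassium channels let potassium leave or enter the cell down its gradient and so set the resting potential, shape the action potential and limit repetitive firing. In hippocampal pyramidal neurons, A-type channels in the dendrites, the M current and calcium-activated channels restrain excitation and are known to affect synaptic plasticity and memory. The gene family comprises voltage-gated pore subunits, inward rectifiers, two-pore leak channels, channels opened by calcium or sodium, and accessory subunits that bind the pore. Lysine crotonylation is an acyl mark of histones and other proteins, written from crotonyl-CoA by acetyltransferases such as p300, and on histones it is known from active promoters and enhancers. A pan-Kcr antibody does not tell which protein or lysine carries the mark.

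The lists differed greatly in size, with 15844 learning peaks and 329508 homecage peaks on the autosomes. Median widths were 306 bp and 351 bp. Files carry positions only, without read counts or enrichment, so depth is unknown and a missing peak cannot be told apart from too few reads. For the same reason, the number of peaks in 1 list was never set against the number in the other as a change. A gene was counted with a peak when at least 1 bp of the peak lay in the gene or within 1 kb of either end. Intervals in parentheses are exact 95% Clopper-Pearson intervals for shares and exact Poisson intervals for peaks per Mb. They cover counting error only and treat genes or peaks as independent, which neighbouring peaks are not.

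Start sites of the family are shown first, to set the peaks near them beside the sequence. The RefSeq promoter table of GRCm38.p6 listed start sites for 68 of the 92 genes, in 93 windows. The 4 sequences below are the 250 bases before the outermost start of the gene, 5′ to 3′. Kcna3 (the Kv1.3 pore subunit) and Kcnj2 (the Kir2.1 inward rectifier) are shown because a learning peak lay just inside the gene. Kcnd2, which encodes the dendritic A-type channel Kv4.2, and Kcnj9, a subunit of the G protein-gated inward rectifiers, are shown because a homecage peak lay over part of the bases printed. Capitals mark a GC box (GGGCGG) or a TATA box (TATAAA) on either strand.
Kcna3 (chr3:107035912-107036161, plus strand): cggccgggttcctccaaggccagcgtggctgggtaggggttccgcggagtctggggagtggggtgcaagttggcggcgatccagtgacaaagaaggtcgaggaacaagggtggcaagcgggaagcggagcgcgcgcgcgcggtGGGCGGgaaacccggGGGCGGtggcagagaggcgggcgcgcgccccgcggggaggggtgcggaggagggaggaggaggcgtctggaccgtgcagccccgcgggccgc
Kcnj2 (chr11:111065914-111066163, plus strand): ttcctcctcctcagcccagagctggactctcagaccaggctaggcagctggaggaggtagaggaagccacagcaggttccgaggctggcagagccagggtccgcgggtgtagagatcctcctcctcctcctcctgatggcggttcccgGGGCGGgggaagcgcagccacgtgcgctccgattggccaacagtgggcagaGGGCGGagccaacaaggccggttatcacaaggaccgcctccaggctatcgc
Kcnd2 (chr6:21215096-21215345, plus strand): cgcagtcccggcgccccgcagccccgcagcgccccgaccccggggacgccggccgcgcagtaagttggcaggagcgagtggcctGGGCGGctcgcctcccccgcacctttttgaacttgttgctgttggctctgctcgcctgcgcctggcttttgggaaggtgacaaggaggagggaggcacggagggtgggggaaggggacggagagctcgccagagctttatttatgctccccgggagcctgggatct
Kcnj9 (chr1:172329323-172329572, minus strand): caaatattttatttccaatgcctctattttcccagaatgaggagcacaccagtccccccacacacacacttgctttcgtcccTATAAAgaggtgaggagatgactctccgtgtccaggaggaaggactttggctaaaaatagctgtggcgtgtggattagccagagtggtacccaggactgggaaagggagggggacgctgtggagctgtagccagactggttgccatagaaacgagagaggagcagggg

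The Kcna3 learning peak (chr3:107036331-107036491, 161 bp) began after the last base printed, within the first 1 kb of the gene. A 692 bp homecage peak (chr3:107036163-107036854) covered it. At Kcnj2, the learning peak (chr11:111066341-111066587, 247 bp) also lay after the start, but the nearest homecage peak was 3067 bp away. At Kcnd2, a 797 bp homecage peak (chr6:21214310-21215106) lay outside the gene and covered 11 of the 250 bases, at their 5′ end. At Kcnj9, a 692 bp homecage peak (chr1:172328878-172329569) covered 247 of the 250 bases. Neither Kcnd2 nor Kcnj9 had a learning peak within 1 kb of its listed start.

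Over the promoter windows, which run from 250 bases before to 50 bases after each start, few Kcn genes had a learning peak. It was 2 of 68 genes, Kcna2 and Kcnma1 (2.94%, 0.358 to 10.2%), beside 5.96% of all 16457 genes with a listed window. A homecage peak was present over a window of 15 of the 68 genes (22.1%, 12.9 to 33.8%), beside 22.6% of all genes. Both intervals include the share over all genes.

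Kcn promoter windows had a median GC content of 58.0% (25th to 75th percentile 52.7 to 66.0%), against 57.0% over all 20085 windows. They held a median of 9 CpG dinucleotides (5 to 21), against 14 (4 to 25). The 10 Kcn windows with a learning peak within 1 kb of the start had a median of 26 CpG, and the 3430 windows of all genes with such a peak had 25. The corresponding medians beside a homecage peak were 14 CpG in 42 Kcn windows and 19 in all windows. Without one, they were 7 and 7. Kcnma1 (36 CpG), Kcna3 (37) and Kcnj4 (41) were the richest of the 10, and Kcnab1 (3) and Kcnip3 (4) the poorest.

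A GC box was found in 44 of the 93 windows (47.3%), beside 47.0% of all windows. A TATA box was found in 5 (5.38%), beside 12.7%. The cAMP response element TGACGTCA, the site of the memory-related factor CREB, was in none of the 93 windows and in 2.30% of all windows. Part of the neuronal repressor element RE1 (TTCAGCACC) was in 1 window (1.08%), beside 0.413%. All were searched on both strands, and none of the 4 motifs contains another. No interval was computed for the motif shares, and the 93 windows come from 68 genes, some with windows that overlap each other. These matches describe the letters of the windows only.

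A learning peak was found at 36 of the 92 Kcn genes (39.1%, 29.1 to 49.9%), beside 28.5% of all autosomal protein-coding genes. A homecage peak was found at 86 (93.5%, 86.3 to 97.6%), beside 85.9% of all genes. Kcn genes are long, with a median length of 34.5 kb (1.97 to 1136 kb) against 17.5 kb over all genes, and long genes hold more peaks. In 10 classes of equal gene number by length, genes of the same classes as the Kcn genes had a learning peak in 38.1% and a homecage peak in 93.1%. The Kcn genes thus stood 1.05 percentage points above genes of similar length in the learning list (-8.96 to 11.8) and 0.329 points in the homecage list (-6.81 to 4.42). Both intervals include 0.

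Within bands of gene length the counts were as follows. Of 20 Kcn genes under 10 kb, 3 had a learning peak (15%, 3.21 to 37.9%), beside 12.8% of all genes of that length. Of 34 genes of 10 to 50 kb, 9 did (26.5%, 12.9 to 44.4%), beside 26.9%. Of 20 genes of 50 to 200 kb, 11 did (55%, 31.5 to 76.9%), beside 49.5%. Of 18 genes of 200 kb and over, 13 did (72.2%, 46.5 to 90.3%), beside 80%. In every band the share over all genes lay inside the interval of the Kcn genes.

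For homecage peaks, 16 of the 20 shortest Kcn genes had one (80%, 56.3 to 94.3%), beside 65.8% of all genes. It was 32 of 34 in the second band (94.1%, 80.3 to 99.3%), beside 95.5%. All 20 genes of 50 to 200 kb and all 18 of 200 kb and over had one, beside 99.7% and 99.9%. The 6 Kcn genes without a homecage peak were all under 20 kb and also lacked a learning peak. They were Kcna5, Kcna7 and Kcna10, pore subunits of the Shaker-related subfamily, Kcne2 and Kcne3, small single-pass accessory subunits, and Kcnv2, a modifier subunit that is silent on its own. They are named because they were few, after their values were seen.

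**Figure D1:**
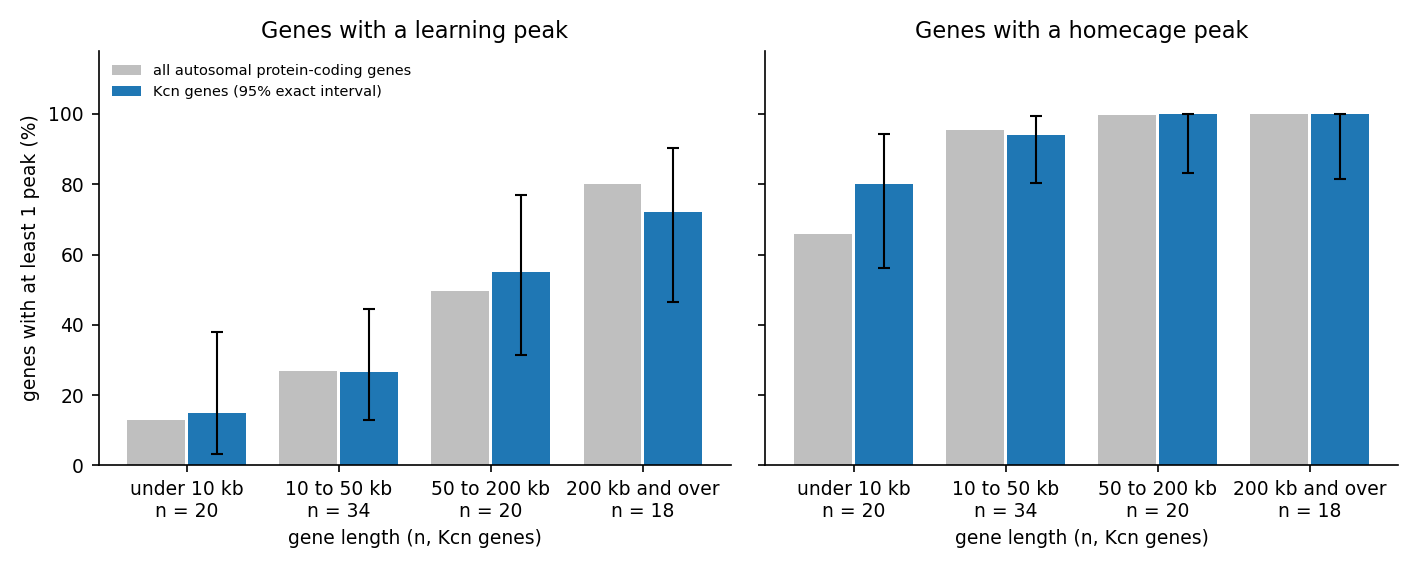
Share of genes with at least 1 learning peak (left) or homecage peak (right) in the gene or within 1 kb, by gene length, for all autosomal protein-coding genes (grey) and Kcn genes (blue, bars with exact 95% intervals). The learning share of Kcn genes ran from 15% under 10 kb to 72.2% at 200 kb and over, with the grey bar inside the interval in every band.

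Per length, learning peaks in the merged windows of Kcn genes numbered 66 in 10.8 Mb, or 6.09 per Mb (4.71 to 7.75). All autosomal protein-coding genes together had 8.47 per Mb, above that interval. Without the 5 longest Kcn genes the density was 7.02 (5.24 to 9.20), an interval that includes the value over all genes, 8.49. Density fell with gene length over all genes, from 21.5 learning peaks per Mb under 10 kb to 5.55 at 200 kb and over. Kcn genes of 200 kb and over, which held 36 of the 66 peaks, had 4.59 per Mb (3.22 to 6.36). Those of 50 to 200 kb had 9.34 (5.53 to 14.8), beside 8.35 over all genes of that length. Kcn genes of 10 to 50 kb had 9.77 (4.47 to 18.5), beside 12.7, and those under 10 kb had 18.6 (3.84 to 54.5), beside 21.5. Each of these 4 intervals includes the value over all genes.

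Homecage peaks numbered 1511 in the Kcn windows, or 139 per Mb (132 to 147), beside 143 per Mb over all genes. The number per gene followed gene length closely. Spearman's rho between length and homecage peaks was 0.93 over the 92 Kcn genes and 0.87 over all genes. Between length and learning peaks it was 0.55 and 0.39. These are descriptions across genes of the same 2 libraries. The 5 longest genes held 29.8% of the homecage counts.

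**Figure D2:**
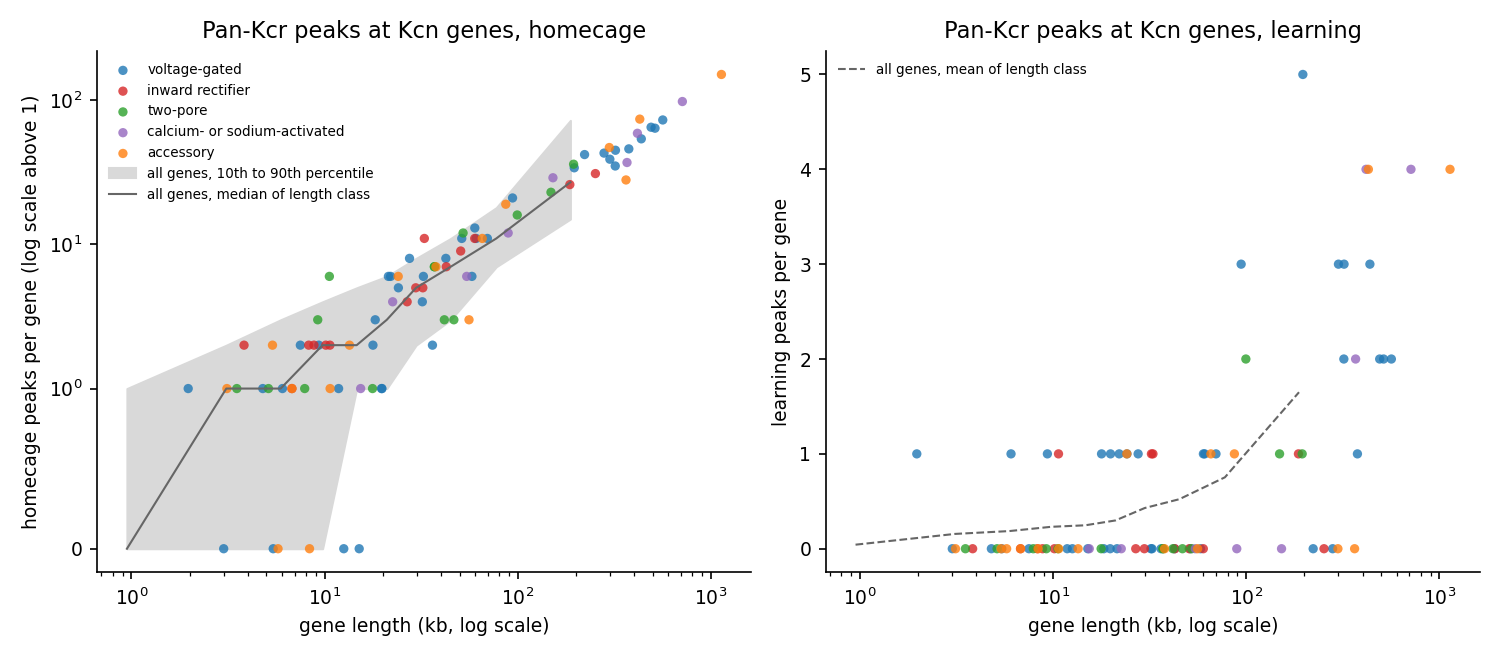
Number of homecage peaks (left, log scale above 1) and learning peaks (right) per Kcn gene against gene length in kb on a log scale, with 1 point per gene coloured by channel class. The grey line and band give the median and the 10th to 90th percentile of all genes in 10 length classes, and the dashed line the mean learning count. Homecage counts climb with length to 151 at Kcnip4, while learning counts do not exceed 5.

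Voltage-gated pore subunits held the most learning peaks. Of these 39 genes, 21 had a learning peak and 35 a homecage peak, beside 28.5% and 85.9% of all genes. Neither these counts nor those of the other channel classes below were matched for gene length. Windows of the voltage-gated genes held 37 learning peaks, 7.57 per Mb (5.33 to 10.4), and 673 homecage peaks, 138 per Mb (128 to 149). All genes had 8.47 and 143 per Mb, inside these intervals. Densities in the other classes were lower in the learning list, but all intervals overlapped. By the letter after Kcn, 15 of 19 subfamilies had a learning peak, and the 4 without one (Kcne, Kcnf, Kcnr and Kcnu) together have 7 genes.

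The Kcna genes encode Shaker-related subunits, some of which open at low voltage along axons. Kcnab1 to Kcnab3 instead encode their cytoplasmic beta subunits. Kcna1 (Kv1.1), a gene of 9.34 kb, had 1 learning peak (chr6:126645183-126645657, 475 bp) at a gene end and 2 homecage peaks, and a 568 bp homecage peak overlapped the learning peak. Kcna2 (Kv1.2) had 1 learning peak of 344 bp inside a homecage peak of 1897 bp (chr3:107100943-107102839), the second widest homecage peak of the family. That peak lay over the listed start inside the gene. Kcna4, an A-type subunit of 36.2 kb, had no learning peak and 2 homecage peaks, 5.23 per 100 kb. Kcna6 had no learning peak and 6 homecage peaks, the widest of 1498 bp near its start.

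Among the beta subunits, Kcnab1 had 4 learning peaks of 146 to 323 bp and 74 homecage peaks in 429 kb. None of these 4 learning peaks overlapped a homecage peak, and the distances to the nearest one were 287 to 1413 bp. Kcnab2 had 1 learning peak (chr4:152477978-152478123, 146 bp), which lay outside the gene at its 5′ end and also within 1 kb of Nphp4, a gene that overlaps Kcnab2. Kcnab2 also held a homecage peak of 1787 bp. Kcnab3, at 6.78 kb, had 1 homecage peak alone.

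Kcnb2 encodes the delayed rectifier Kv2.2. Kcnb2 (437 kb) had 54 homecage peaks and 3 learning peaks, and 2 of the 3 overlapped a homecage peak. The other, 749 bp wide (chr1:15346609-15347357), was 7902 bp from the nearest homecage peak and among the 5 widest learning peaks of the family. The gene Gm51415 overlaps Kcnb2.

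The Kcnc genes encode the Kv3 channels, which let neurons such as fast-spiking interneurons fire at high rates. Their windows had 7 learning peaks in 0.287 Mb, or 24.4 per Mb (9.82 to 50.3), and 174 homecage peaks per Mb (129 to 230). This learning density stood out only after the values were seen, and 5 of the 7 peaks lay in 1 gene. Kcnc2 (Kv3.2, 196 kb) thus had the most learning peaks of any Kcn gene. Of these, 3 lay close together, at chr10:112327737-112327903, 112328616-112328839 and 112330073-112330356, and homecage peaks of 210 and 445 bp overlapped the first and the second. Kcnc4 had 1 of 189 bp, and 6 homecage peaks. Kcnc1 (Kv3.1) had no learning peak and 8 homecage peaks.

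The Kcnd genes encode the A-type channels Kv4.2 and Kv4.3, and the Kcnip genes the calcium-binding KChIP proteins that bind them. Kcnd2 (514 kb) had 2 learning peaks, of 302 and 357 bp, both in the 3′ part of the gene, at 71.4% and 94.6% of its length. Neither overlapped any of its 64 homecage peaks. Kcnd3 (222 kb) had 42 homecage peaks and no learning peak. Kcnip4, the longest gene of the family at 1136 kb, had 151 homecage peaks, the most of all, and 4 learning peaks. One of these (chr5:49524472-49525264, 793 bp) lay across the gene's 5′ end and was the widest learning peak of the family, with a 311 bp homecage peak overlapping it. The other 3 overlapped none.

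Kcnip3, which encodes KChIP3 and is also known as the transcriptional repressor DREAM, had 1 learning peak of 146 bp 1337 bp inside its 5′ end. It lay inside a 1612 bp homecage peak (chr2:127520332-127521943). Kcnip2 had 1 learning peak of 157 bp at the 5′ end, 112 bp from the nearest homecage peak. Kcnip1 (364 kb) was the longest gene without a learning peak. It had 28 homecage peaks, 7.65 per 100 kb, the lowest density of the 18 Kcn genes of 200 kb and over, for which the median was 13.1 and the highest 18.7. Over all 945 genes of that length, the median was 13.5 and the 5th percentile 9.92, so that Kcnip1 lay below it. The lowest of 18 genes would often lie below a 5th percentile, so this does not set Kcnip1 apart. The gene overlaps Kcnmb1.

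The Kcnh genes encode the ether-à-go-go family, which includes the ERG and Elk channels. Kcnh1 (EAG1, 321 kb) had 3 learning peaks, and 2 overlapped a homecage peak. One of these, 778 bp wide (chr1:192191223-192192000), lay 0.769% into the gene. Kcnh7 (491 kb) had 65 homecage peaks and 2 learning peaks, of 393 and 413 bp, in the last part of the gene, at 91.5% and 99.2% of its length. Neither overlapped a homecage peak. Kcnh6 and Kcnh8 each had 1 learning peak that overlapped none. Kcnh5 (280 kb) had 43 homecage peaks and no learning peak.

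Kcnq3 and Kcnq5 encode subunits of the M channel, which muscarinic receptors close. Kcnq3 (300 kb) had 3 learning peaks, the widest (chr15:66286123-66286555, 433 bp) at a gene end and overlapped by a 325 bp homecage peak. Kcnq5 (564 kb) had 73 homecage peaks and 2 learning peaks of 238 and 303 bp, and a 947 bp homecage peak overlapped the wider one. Kcnq1, best known for its role in heart and inner ear, had 2 learning peaks, of 244 and 464 bp, and 35 homecage peaks in 320 kb. Both learning peaks lay inside the overlapping noncoding gene Kcnq1ot1.

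The modifier subunits of the Kcng, Kcns, Kcnv and Kcnf genes form channels only together with other voltage-gated subunits. Kcns2 (6.05 kb) had 1 learning peak (chr15:34837537-34838002, 466 bp) and 1 homecage peak of 302 bp, and the 2 overlapped at a gene end. Kcns3 had a learning peak of 491 bp overlapped by a 756 bp homecage peak. Kcng2 and Kcnv1 each had 1 learning peak that overlapped none, of 159 and 480 bp. The widest homecage peak of the family lay in Kcng4 (chr8:119632968-119634933, 1966 bp), the only peak of that 11.8 kb gene in either list. Kcnf1 likewise had 1 homecage peak, of 1386 bp, which with its 4.79 kb length put 20.4% of its window under a peak. Kcng1 had 25.6 homecage peaks per 100 kb, against a median of 15.3 over the 61 Kcn windows of at least 20 kb.

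Inward rectifiers and two-pore channels set the resting potential. Of the 15 Kcnj genes, 4 had a learning peak and all 15 a homecage peak, beside 28.5% and 85.9% of all genes. Their windows had 5.05 learning peaks per Mb (1.38 to 12.9) and 151 homecage peaks per Mb (126 to 181). Kcnj10, the Kir4.1 channel with which astrocytes take up potassium, had the most homecage peaks per 100 kb among windows of at least 20 kb, 31.5. Its 11 homecage peaks covered 22.1% of the window, and the widest was 1706 bp. Its 1 learning peak, of 146 bp, lay inside a 1401 bp homecage peak. Kcnj4 (Kir2.3) had a learning peak of 329 bp and, at its 5′ end, a homecage peak of 1844 bp (chr15:79510838-79512681) that did not overlap it.

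The G protein-gated channels Kcnj3 and Kcnj6, through which GABA-B and other receptors inhibit pyramidal neurons, differed in their learning peaks. Kcnj3 (186 kb) had 1, of 526 bp, 260 bp from the nearest of 26 homecage peaks. Kcnj6 (253 kb) had none and 31 homecage peaks, one of them 892 bp wide near its 5′ end. Kcnj9 had none and 2 homecage peaks. With at most 1 learning peak a gene, this is a difference of a single peak.

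Of the 14 two-pore Kcnk genes, 3 had a learning peak and all 14 a homecage peak, beside 28.5% and 85.9% of all genes. Their windows had 5.41 learning peaks per Mb (1.47 to 13.8) and 162 homecage peaks per Mb (134 to 194). Kcnk2 (TREK-1, a stretch- and lipid-sensitive leak channel) had a learning peak of 671 bp (chr1:189214381-189215051), 96.5% along the gene and 146 bp from the nearest homecage peak. It was wider than the widest of the 36 homecage peaks of the gene, 601 bp. Kcnk10 (TREK-2) had a 289 bp learning peak inside a 582 bp homecage peak. Kcnk13, a channel of microglia, had 2 learning peaks of 150 and 413 bp, 2926 and 2521 bp from the nearest homecage peaks. Kcnk1 had no learning peak and 7 homecage peaks.

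The channels opened by calcium or sodium end action potentials and slow firing. Their class was formed by symbol, from Kcnma, Kcnn, Kcnt and Kcnu, and what opens the Kcnu1 channel was not examined here. Of the 8 genes of this class, 3 had a learning peak, beside 28.5% of all genes. They held 10 learning peaks in all, and the windows of the class had 5.41 per Mb (2.59 to 9.95) and 133 homecage peaks per Mb (117 to 151). Kcnma1, the large-conductance BK channel (713 kb), had 98 homecage peaks and 4 learning peaks. One of the 4 (chr14:24004299-24004958, 660 bp) lay 0.0675% into the gene under a homecage peak of 1244 bp, the widest in the gene. Kcnn2, the small-conductance SK2 channel of dendritic spines (417 kb), had 59 homecage peaks and 4 learning peaks of 171 to 292 bp, of which 1 overlapped a homecage peak. Its widest homecage peak was 1785 bp. Kcnn3 (SK3, 152 kb) had 29 homecage peaks and no learning peak. Of the sodium-activated channels, Kcnt2 (368 kb) had 2 learning peaks, of 231 and 162 bp, each overlapping a homecage peak, of 406 and 1365 bp. Kcnt1 had 6 homecage peaks and no learning peak.

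Of the 16 accessory genes, 5 had a learning peak and 14 a homecage peak, beside 28.5% and 85.9% of all genes. Their windows had 4.28 learning peaks per Mb (2.14 to 7.66), beside 8.47 over all genes and 5.55 over genes of 200 kb and over. Learning peaks were in Kcnab and Kcnip genes. None was at the 4 Kcnmb genes, which encode beta subunits of the BK channel, although Kcnmb2 (298 kb) had 47 homecage peaks. None was at the 4 Kcne genes, which total 0.0387 Mb of window and had 3 homecage peaks.

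**Figure D3:**
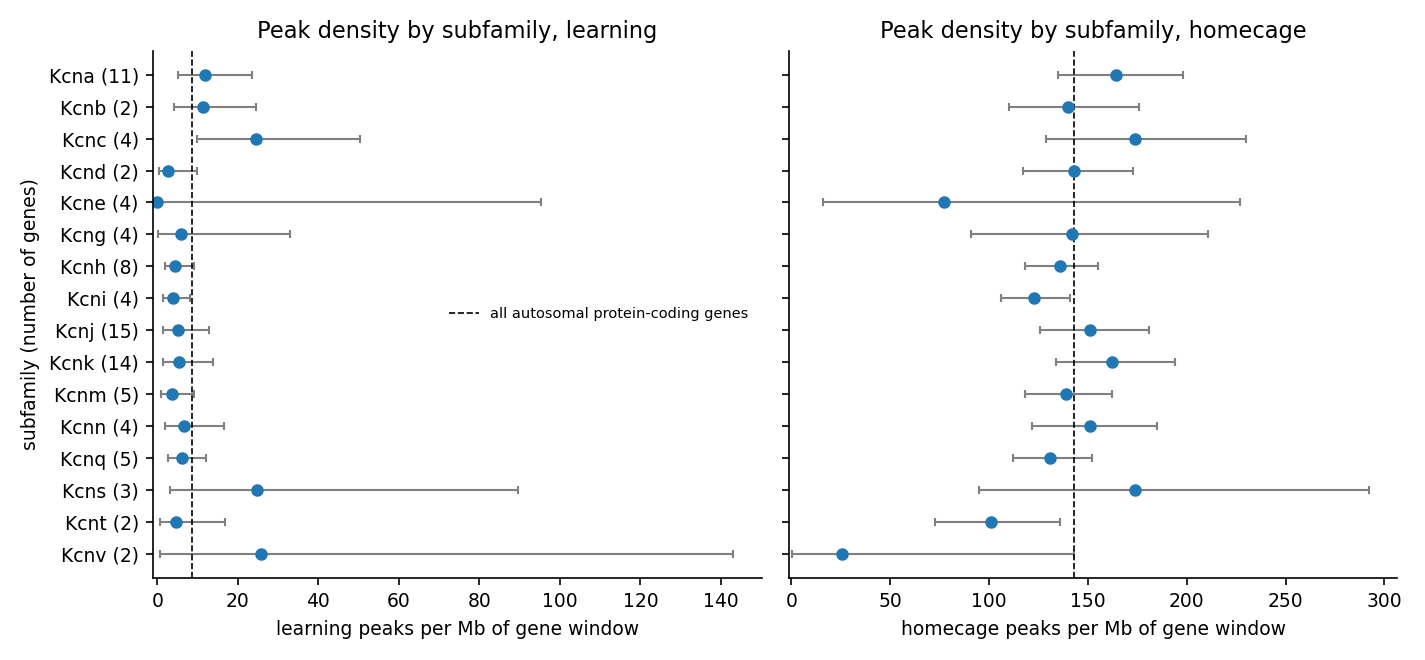
Learning peaks (left) and homecage peaks (right) per Mb of gene window for each Kcn subfamily of 2 or more genes, named by the letter after Kcn, with exact 95% Poisson intervals and the value over all autosomal protein-coding genes as a dashed line. In the learning list, the interval of Kcnc (9.82 to 50.3 per Mb) lies above the line at 8.47 and that of Kcni (Kcnip, 1.38 to 8.18) below it, and in the homecage list those of Kcni (106 to 141) and Kcnt (72.9 to 136) lie below the line at 143. Most of the window length of Kcni and Kcnt is in genes of 200 kb and over, for which all genes had 5.55 learning and 136 homecage peaks per Mb. These values lie inside both Kcni intervals, and 136 is at the upper edge of the homecage interval of Kcnt. The longest Kcnc gene, Kcnc2, has 196 kb. All genes of 50 to 200 kb had 8.35 learning peaks per Mb, below the Kcnc interval. Those of 10 to 50 kb had 12.7, inside it. The Kcna point pools pore subunits with the 3 Kcnab genes, and the Kcnm point pools Kcnma1 with the 4 Kcnmb genes. The 8 Kcna genes without Kcnab had 21.3 learning (4.38 to 62.1) and 113 homecage peaks per Mb (64.8 to 184). Both of these intervals include the value over all genes.

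Of 27 channels chosen for their known roles in hippocampal neurons and glia, 19 had a learning peak (70.4%, 49.8 to 86.2%) and all 27 a homecage peak. A homecage peak was found at 85.9% of all genes, and at 95.5 to 99.9% in the length bands of 10 kb and over. The share with a learning peak was 28.5% over all genes and 54.3% over genes of the same length classes, inside the interval. Of the 12 channels of 200 kb and over, 10 had one, beside 80% of all genes of that length. The 8 without a learning peak were Kcna4, Kcnc1, Kcnd3, Kcnj6, Kcnj9, Kcnk1, Kcnn3 and Kcnt1. This list was drawn up with results of these data known, so its share is a description.

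A single learning peak was found at 21 genes, 2 peaks at 6, 3 peaks at 4, 4 peaks at 4 and 5 peaks at 1 gene. The 15 genes with at least 2 (16.3%, 9.42 to 25.5%, beside 8.15% of all genes) held 45 of the 66 peaks, and all were of 50 kb and over. At 50 to 200 kb it was 3 of 20 genes (15%, 3.21 to 37.9%), beside 18%, and at 200 kb and over 12 of 18 (66.7%, 41.0 to 86.7%), beside 55.2%, both inside the intervals. No learning peak was shared between Kcn genes. The 5 longest genes without a learning peak, Kcnip1, Kcnmb2, Kcnh5, Kcnj6 and Kcnd3, had 28 to 47 homecage peaks.

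**Figure D4:**
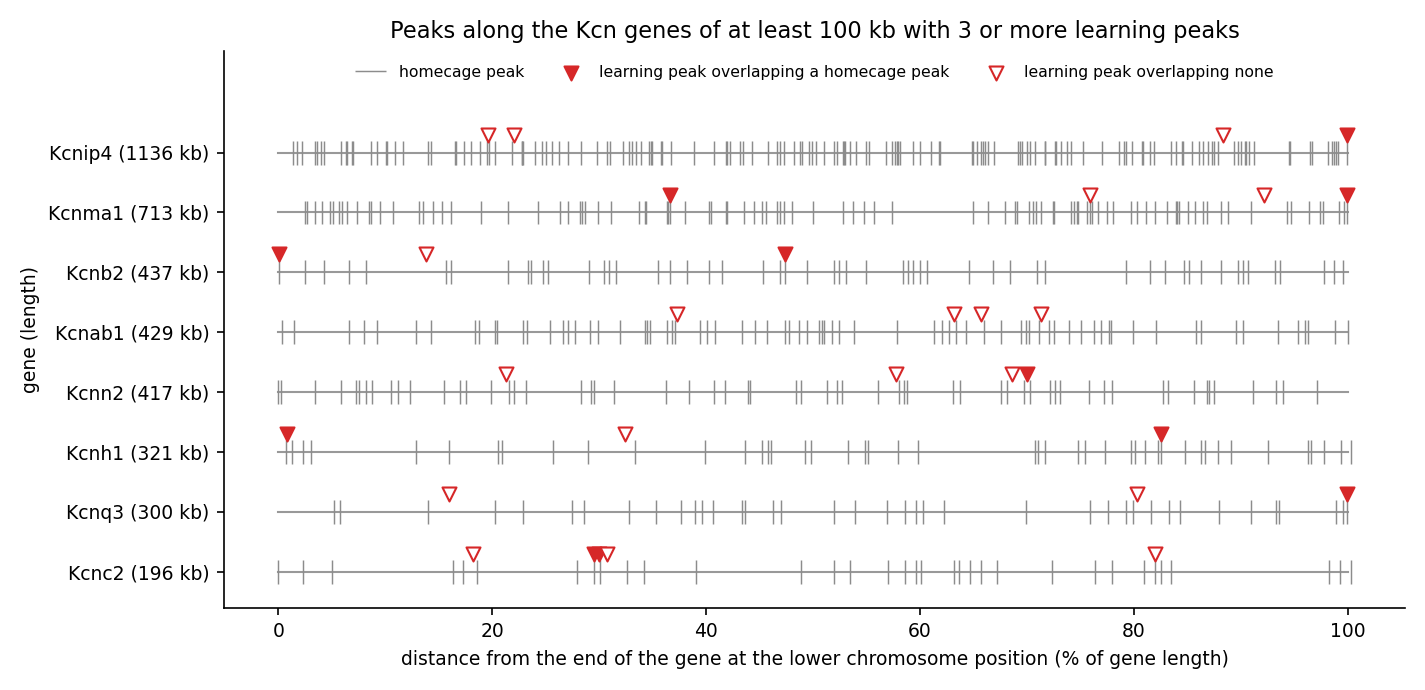
Position of peaks along the 8 Kcn genes of at least 100 kb with 3 or more learning peaks, as distance from the end of the gene at the lower chromosome position in percent of gene length. Grey ticks are homecage peaks, filled triangles learning peaks that overlap one and open triangles learning peaks that overlap none. All 4 triangles of Kcnab1 are open, and 2 of the 4 of Kcnma1.

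Learning peaks of Kcn genes lay mostly away from gene ends. Of the 66 peaks, 11 were within 1 kb of an end of any protein-coding gene (16.7%, 8.62 to 27.9%), beside 36.8% of the 8621 learning peaks at all genes. This background moved with gene length, from 86% of peaks at genes under 10 kb to 10.4% at genes of 200 kb and over, where 4 of 36 Kcn peaks lay at an end (11.1%, 3.11 to 26.1%). Under 10 kb it was 3 of 3 Kcn peaks. At 10 to 50 kb it was 3 of 9 (33.3%, 7.49 to 70.1%), beside 53.7%. At 50 to 200 kb it was 1 of 18 (5.56%, 0.141 to 27.3%), beside 30.1%, the only band with the background outside the interval. By gene, 11 of 92 had a learning peak within 1 kb of an end (12%, 6.12 to 20.4%), beside 16.5% of all genes and 18.9% of genes in the same length classes, a difference of -6.93 points (-12.8 to 1.5). Among these genes were Kcna1, Kcna3, Kcnab2, Kcnb2, Kcnip2, Kcnip4, Kcnj2, Kcnma1, Kcnq3 and Kcns2. A homecage peak at an end was found at 57 genes (62%, 51.2 to 71.9%), beside 64.3% of all genes and 67.3% of the length classes, a difference of -5.30 points (-16.0 to 4.63). Both differences have intervals that include 0.

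In the 28 Kcn genes of at least 50 kb whose strand is listed, each gene was split into 3 equal stretches. Of 36 learning peaks, 14 lay in the stretch next to the 5′ end (38.9%, 23.1 to 56.5%), 8 in the middle (22.2%) and 14 in the stretch next to the 3′ end (38.9%, 23.1 to 56.5%). Over all 3678 such genes, the shares were 47.8% next to the 5′ end and 24.9% next to the 3′ end, both inside these intervals. Of the homecage peaks of Kcn genes, 34.5% lay next to the 5′ end and 32.5% next to the 3′ end, beside 34.5% and 32.4% over all genes.

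Learning peaks of Kcn genes were next compared with homecage peaks by position. Of the 66, 22 overlapped a homecage peak by at least 1 bp (33.3%, 22.2 to 46.0%), beside 48.6% of the learning peaks at all genes, which lies above the interval. Place in the gene moved with this value. Of the 11 peaks at gene ends, 7 overlapped one (63.6%, 30.8 to 89.1%), beside 68.9%. Of the 55 farther than 1 kb from gene ends, 15 did (27.3%, 16.1 to 41.0%), beside 36.9%. At both places the share over all genes lay inside the interval. By gene length, the overlap was 3 of 3 peaks under 10 kb, beside 64.6%, and 2 of 9 at 10 to 50 kb (22.2%, 2.81 to 60.0%), beside 55.6%. It was 5 of 18 at 50 to 200 kb (27.8%, 9.69 to 53.5%), beside 49.4%, and 12 of 36 at 200 kb and over (33.3%, 18.6 to 51.0%), beside 34.5%, all inside the intervals. The share over all genes also lay inside when a homecage peak within 1 kb was counted as shared (65.2%, 52.4 to 76.5%, beside 69.7%) or when 50% of both peaks had to overlap (12.1%, 5.38 to 22.5%, beside 17.2%). Conversely, 22 of 1511 homecage peaks overlapped a learning peak (1.46%, 0.915 to 2.20%), beside 2.86% over all genes, which lies above the interval. This last share was not split by gene length, and 1031 of the homecage peaks lay at Kcn genes of 200 kb and over. Learning peaks per Mb were fewest at that length over all genes.

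Of the 36 genes with a learning peak, 17 had at least 1 that overlapped a homecage peak and 19 had none. Among those 19 were Kcnab1, Kcnab2, Kcnc4, Kcnd2, Kcng2, Kcnh6, Kcnh7, Kcnh8, Kcnip2, Kcnj2, Kcnj3, Kcnj4, Kcnk2, Kcnk13, Kcnq1 and Kcnv1. All 19 had homecage peaks elsewhere in their windows. The 44 learning peaks without an overlap were a median of 1076 bp from the nearest homecage peak (25 to 8963 bp), and 21 of them lay within 1 kb of one. Their median width was 286 bp, compared with 296 bp for the 22 with an overlap.

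In width, learning peaks of Kcn genes had a median of 288 bp (25th to 75th percentile 196 to 413 bp), against 312 bp (204 to 442 bp) over all genes. Of the 66, 8 were at least 500 bp wide (12.1%), beside 17.3% over all genes. Another 7 of the 66 were no wider than 147 bp, the smallest homecage width (146 bp in the learning list). Among all autosomal learning peaks, 8.93% were 146 bp wide and 9.97% were under 150 bp. Homecage peaks had a median of 351 bp (222 to 507 bp) at Kcn genes and 355 bp (223 to 505 bp) over all genes, and 26.0% and 25.8% were at least 500 bp wide.

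Since the homecage list is so much longer, it was also reduced to its 15844 widest autosomal peaks, all of at least 884 bp, to match the number of learning peaks. Of the 92 Kcn genes, 44 had such a wide peak (47.8%, 37.3 to 58.5%), beside 24.4% of all genes, and 13.0 points above genes of the same length classes (2.46 to 23.7). The difference depended on the width chosen. For homecage peaks of at least 500 bp it was 2.11 points (-8.16 to 10.9), an interval that includes 0. By length, it was 1 of 20 genes under 10 kb (5%, 0.127 to 24.9%), beside 9.06% of all genes. It was 13 of 34 genes of 10 to 50 kb (38.2%, 22.2 to 56.4%), beside 19.8%, which lies below the interval. In the longer bands it was 13 of 20 (65%, 40.8 to 84.6%), beside 48.8%, and 17 of 18 (94.4%, 72.7 to 99.9%), beside 87.1%. Per Mb, the wide peaks numbered 7.66 (6.10 to 9.49) at Kcn genes and 7.65 over all genes, which are shorter. By length, the density was 18.4 per Mb (10.7 to 29.5) at Kcn genes of 10 to 50 kb, beside 9.07, and 12.5 (7.98 to 18.5) at 50 to 200 kb, beside 7.86, both intervals above the value over all genes. At 200 kb and over it was 5.23 (3.75 to 7.09), beside 6.22, and under 10 kb there was 1 wide peak. Among the 44 genes with such a peak, 25 also had a learning peak, beside 36 of all 92 Kcn genes. Both kinds of peak were found at more of the longer genes. This count was not matched for length or set beside all genes, so it shows no link between them. Examples of genes with a wide homecage peak are Kcna2 (1897 bp), Kcnab2 (1787 bp), Kcnc2 (1795 bp), Kcnj4 (1844 bp) and Kcnn2 (1785 bp), which had learning peaks too, and Kcng4 (1966 bp), which had none.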

How the data were processed

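Deposited files were lists of broad peaks with 4 columns (chromosome, start, end, name) and other measures such as enrichment or counts are not in them. The names in the deposited files give broad calling with p 0.01, with a list for each library. Per the submitters' processing notes, Trimmomatic, BWA and MACS2 were used with build mm10. Their settings, the read filters and the use of input are not given in the sources used here. Per the labels' protocols, chromatin was sheared to 200 to 500 bp, which limits the resolution of a peak.

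Libraries were assigned by title. Genes came from RefSeq (GRCm38.p6). Comparisons between genes used all 20665 autosomal protein-coding genes as background, whole and in 10 length classes, in place of random genes. The 4 length bands, all values by band and the promoter motifs were chosen after the files were seen, and the members and lists with earlier results of these data known. Named genes were those with a learning peak at a gene end or none overlapping a homecage peak, the 5 leading by number, density or width of peaks, the 5 longest without a learning peak, any over 20 kb without a homecage peak (0 genes), and 27 hippocampal channels. A few genes covered by this rule are counted but not reported by name here. Counting was tested on simulated lists. Scripts ran in Python 3.11.15 with scipy 1.17.1, pandas 2.3.3, matplotlib 3.10.9 and numpy 2.4.6. Alternatives changed the window, peak width, overlap rule, length classes and gene set.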

Additional observations from a re-analysis of the deposited data

Results flagged for a closer look

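Genes outside the rule, which the comparisons do not use, were examined for peaks. The noncoding gene Kcnd3os, which overlaps the start of Kcnd3, had 4 homecage peaks and no learning peak. The imprinted noncoding gene Kcnq1ot1, which lies within Kcnq1, had 5 homecage peaks, 5.85 per 100 kb, and 2 learning peaks. Both homecage counts are above the 3 that were set as the limit for a count of 0. That limit takes no account of gene length. The density at Kcnq1ot1 was below the median of 15.3 per 100 kb over Kcn windows of at least 20 kb. At Kcnd3os, a gene of 4.77 kb, it was 59.1. These peaks are partly those counted for the overlapping or neighbouring coding genes, and the files cannot assign a peak to 1 of 2 overlapping genes.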

How the results depend on the processing

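No paired analysis was possible because only 1 antibody library stood for a condition, which also left no replicate to omit. Among 45 values from alternatives, 29 lay inside the main value's interval (a count of subfamilies: close to the main count) and 16 outside. The learning difference from length classes, 1.05 points, became -0.735 with 3 kb windows, -2.67 with peaks of at least 500 bp and -0.819 with 20 classes, and the homecage one, 0.329, became -0.741 without overlapping genes, all with intervals that include 0. With peaks of at least 500 bp, 6.52% of Kcn genes had a learning peak and 72.8% a homecage peak, 2.17% and 33.7% had one at a gene end, densities were 0.738 (0.319 to 1.45) and 36.3 per Mb, and 6 subfamilies had a learning peak. Over all genes, these values were 6.65% and 57.9%, 4.05% and 29.5% at ends, and 1.47 and 36.7 per Mb. The learning density thus lay below the all-gene value and the homecage share (62.6 to 81.6%) above it, without regard to gene length. Against genes of the same length classes, the homecage difference at this width was 2.11 points (-8.16 to 10.9), which includes 0. With the widest homecage peaks, 47.8% of genes had one, the difference from length classes was 13.0 points and the density 7.66 per Mb. Windows of 3 kb gave a homecage peak at 97.8% of genes and at the ends of 89.1%, beside 91.5% and 85.8% of all genes. Against genes of the same length classes, the homecage difference with 3 kb windows was 2.06 points (-3.4 to 3.97), which includes 0. Listed starts alone gave 50% for homecage, beside 54.6% over all genes. Merging peaks closer than 1 kb gave 124 homecage peaks per Mb, beside 126 over all genes. Overlap of 50% of both peaks left 12.1% of learning peaks shared, and a homecage peak within 1 kb was found for 65.2%. Over all genes, these last shares were 17.2% and 69.7%. The depth of both libraries is unknown, so absence of a peak has no stated limit.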

Other observations

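The 2 X-linked Kcn genes, Kcnd1 (14.5 kb, the A-type channel Kv4.1) and Kcne1l (1.45 kb), had 0 peaks in both lists. Few peaks lay off the autosomes, which held 15844 of all 16243 learning peaks and 329508 of all 332168 homecage peaks. No share over X-linked genes was computed, so these 0 counts are not particular to the 2 channels. Of the other noncoding genes with a Kcn symbol, Kcnmb4os1 and Kcnmb4os2 had 0 peaks in both lists.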
